A study of Homo sapiens with 40 samples.

Results

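SERPINB2 and the genes that make, restrain and anchor plasminogen activators were described in 40 RNA-seq libraries of HepaRG cells. The 5 genes were taken by name from the 56568 gene names in the deposited tables, namely SERPINB2, SERPINE2, PLAU, PLAUR and PLAT. SERPINB2 was included because of its response to PCB 126 in these libraries, so its values in the PCB 126 groups are given as a description with no test. The other 4 members were listed for their role in the same system. All libraries come from HepaRG, a line of human liver origin whose differentiated cultures mix hepatocyte-like with biliary-like cells. All cells were kept from day 8 to day 14 in Williams' E medium with 2% fetal bovine serum and 1% DMSO. The 8 groups held 5 libraries each. Besides the solvent control there were 3 groups with PCB 126 (100 pM, 10 nM or 1 µM), 3 with glyphosate (10 µg/L, 1 mg/L or 0.1 g/L) and 1 with Roundup (10 µg/L). PCB 126 is a dioxin-like polychlorinated biphenyl, glyphosate is the active ingredient of many herbicides, and Roundup is a commercial formulation that contains it. The PCB 126 and herbicide comparisons share the same 5 control libraries.

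The unit throughout is FPKM, the number of fragments scaled to transcript length and to the mapped total of the library, summed over the transcripts of a gene. The deposited values hold no counts of reads, so the number of fragments behind a value is unknown and the precision is set by n = 5 libraries per group. The labels do not say that the libraries of a group came from separate cultures, so p-values measure the spread between these libraries, which may be technical. In bulk RNA, fewer cells of a type cannot be told apart from less RNA per cell. The cells carried hepatocyte transcripts, with ALB between 2922 and 17154 FPKM and SERPINA1 between 1545 and 6808 FPKM in the 40 libraries. Of the biliary markers, KRT19 was between 97.9 and 407 FPKM while EPCAM was at or near 0, with a maximum of 0.0738 FPKM. In an alignment summary, 9 libraries had more than 30% of read pairs aligned to several places, and most of the 9 had a lower FPKM scale. They were control replicate 5, replicates 3 and 5 at 10 nM, replicates 1 and 5 at 1 µM, replicate 2 of glyphosate at 0.1 g/L, replicate 5 of glyphosate at 10 µg/L, and replicates 4 and 5 of Roundup. The 75th percentile of expressed genes, relative to the median library of the table, was 0.555 to 0.935 in the 5 such libraries of the PCB 126 table and 0.751 to 1.14 in the other 15.

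Plasminogen activators are serine proteases that cut the zymogen plasminogen into plasmin, the enzyme that dissolves fibrin and degrades extracellular matrix. Urokinase, encoded by PLAU, acts largely at the cell surface, bound to the receptor encoded by PLAUR, and tissue-type activator, encoded by PLAT, acts mainly on fibrin. SERPINE2 and SERPINB2 are serpins that inhibit these proteases by forming a covalent complex with them. The hepatocyte is the main source of circulating plasminogen, fibrinogen and the plasmin inhibitor SERPINF2. SERPINB2 is best known from activated monocytes, keratinocytes and placenta, and is a reported target of dioxin-like ligands of the aryl hydrocarbon receptor.

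SERPINB2 lies on the plus strand at chr18:63871692-63903890 (GRCh38), in a cluster of clade B serpin genes. PLAUR lies at chr19:43646095-43670547 on the minus strand, SERPINE2 at chr2:223975112-224039319 on the minus strand, and PLAU at chr10:73909177-73917497 on the plus strand. The sequence before the start site is shown for SERPINB2 because 2 of its annotated transcripts begin within 5 bases of each other there and carry nearly all of its FPKM. RefSeq (GRCh38.p14) promoter windows were found for 4 of the 5 members, 6 windows in all, and PLAT had no entry. The 245 bases at chr18:63887455-63887699, plus strand, precede both transcripts. Capitals mark a match to TGANTCA, the pattern bound by AP-1 factors, and to TATAA:
SERPINB2: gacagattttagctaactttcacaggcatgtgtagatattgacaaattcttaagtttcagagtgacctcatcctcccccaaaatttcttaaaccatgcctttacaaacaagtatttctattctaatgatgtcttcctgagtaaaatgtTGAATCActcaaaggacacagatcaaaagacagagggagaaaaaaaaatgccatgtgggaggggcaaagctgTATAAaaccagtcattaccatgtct

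The SERPINB2 match to TGANTCA began 102 bases before the RefSeq start site and the match to TATAA began 30 bases before it. Among 35116 RefSeq windows of 250 bases upstream, 6.57% held TGANTCA, which reads alike on both strands, and 13.6% held TATAA on the strand of the gene. GCGTG, the core to which the aryl hydrocarbon receptor complex binds, was searched on both strands (as GCGTG or CACGC) and 32.2% of all windows held it. The SERPINB2 window had no match to GCGTG. The PLAUR window held 1 match to TGANTCA and 1 to the core, and 27 and 25 bases around them are shown for comparison, from the minus strand at chr19:43670339-43670365 and chr19:43670241-43670265:
PLAUR TGANTCA: cacaactccaTGAGTCAgggccgagcc
PLAUR core: gggaggcgccCACGCatctggggct
These matches did not overlap. The core also occurred in 1 of 2 windows of SERPINE2 and 1 of 2 windows of PLAU, where TGANTCA was not found. A match to a short pattern describes letters only and does not show that a factor binds there.

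SERPINB2 was under 2 FPKM in every control library and reached 61 FPKM with PCB 126. The control libraries held 1.71, 0.76, 0.525, 0.362 and 0.353 FPKM. The 100 pM libraries held 3.18, 2.37, 1.39, 0.659 and 4.57 FPKM. At this concentration 3 of 5 libraries were above every control library and the ranges overlapped. The 10 nM libraries held 29.6, 16.8, 3.58, 5.07 and 23.98 FPKM. The 1 µM libraries held 19.4, 60.997, 54.2, 39.6 and 22.8 FPKM. All 10 libraries of the higher concentrations were above every control library, as were those of 0.267% of the genes that passed the variance filter at 10 nM and 0.707% at 1 µM. The 10 nM and 1 µM ranges overlapped, with 3 of 5 libraries at 1 µM above every 10 nM library. The mean was 0.742 ± 0.565 FPKM (SD, n = 5) in control cells, 2.43 ± 1.53 at 100 pM, 15.8 ± 11.4 at 10 nM and 39.4 ± 18.4 at 1 µM, so the treated means were 3.28, 21.3 and 53.1 times the control mean. On the log2(FPKM + 1) scale, where low values are pulled together, the difference from control was 0.91, 2.96 and 4.45, with an SE of 0.45 each.

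The lowest library at 10 nM (replicate 3) and the 2 lowest at 1 µM (replicates 1 and 5) are among those over the 30% limit. Without all libraries over the limit the difference from control was 3.07 at 10 nM and 4.87 at 1 µM. Among all genes of a library, SERPINB2 ranked at a median of 15104 by FPKM in control cells, 10510 at 100 pM, 2193 at 10 nM and 856 at 1 µM. Its FPKM was above that of SERPINE2, the other serpin among the members, in 0 of 5 control libraries, 0 of 5 at 100 pM, 2 of 5 at 10 nM and 5 of 5 at 1 µM, and in 0 of the herbicide libraries.

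**Figure D1:**
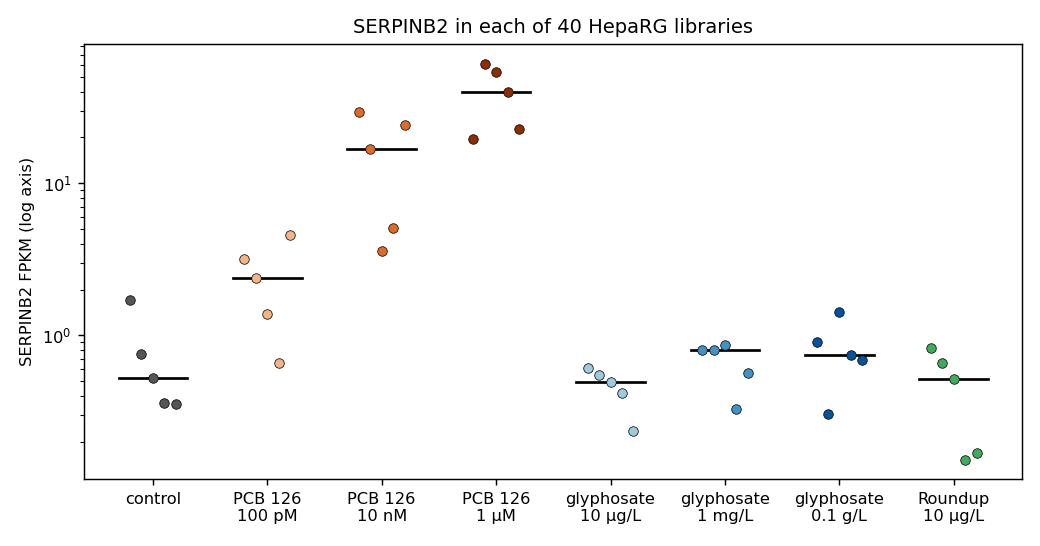
SERPINB2 FPKM (log axis) in each library by group; each point is 1 library and the horizontal bar is the group median of 5 libraries. The median stepped from 0.525 FPKM in control to 2.37, 16.8 and 39.6 FPKM along the PCB 126 concentrations, while the herbicide libraries all stayed at 1.42 FPKM or less.

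In the herbicide groups SERPINB2 stayed within the range of the control libraries or below it. The glyphosate libraries held 0.612, 0.548, 0.492, 0.416 and 0.236 FPKM at 10 µg/L. At 1 mg/L they held 0.807, 0.802, 0.867, 0.33 and 0.569 FPKM, and at 0.1 g/L 0.912, 0.302, 1.42, 0.747 and 0.694 FPKM. The Roundup libraries held 0.821, 0.659, 0.515, 0.153 and 0.17 FPKM. No herbicide library exceeded the highest control library. The 2-sided exact permutation tests against control gave p = 0.405, 0.984, 0.73 and 0.389 for the 3 glyphosate doses in rising order and Roundup. SERPINB2 was chosen for a response to PCB 126 set against these same control libraries. Comparisons of it with control are thus not independent of that choice. The differences from control on the log2(FPKM + 1) scale were -0.21, -0.02, 0.08 and -0.22. SERPINB2 did not reach the variance filter of the herbicide table. In order of the medians, the 3 PCB 126 groups stood above all others, followed by glyphosate at 1 mg/L (0.802 FPKM), glyphosate at 0.1 g/L (0.747), control (0.525), Roundup (0.515) and glyphosate at 10 µg/L (0.492). Each pair of neighbours in that order overlapped, and the pairs without a PCB 126 group gave exact permutation p-values between 0.389 and 0.929.

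The transcript that carried the SERPINB2 signal differed between low and high libraries. The annotation holds 6 SERPINB2 transcripts, of which ENST00000299502 (8 exons, 1913 bases) begins at chr18:63887700 and ENST00000457692 (9 exons, 2155 bases) at chr18:63887705. At 10 nM and 1 µM, ENST00000299502 carried between 97.9% and 100% of the gene's FPKM in each of the 10 libraries. At 100 pM it carried at least 98.1% in 4 libraries and 0% in replicate 4, the library with the lowest SERPINB2. In control cells it carried 97.6% in replicate 1, the highest control library, and was listed at 0 in the other 4, where ENST00000457692 held all of it at 0.353 to 0.76 FPKM. In the 10 glyphosate 10 µg/L and Roundup libraries ENST00000299502 was listed at 0, and it was above 0 in 2 libraries at each of the 2 higher glyphosate doses. Nearly every library with under 1.5 FPKM was thus assigned wholly to 1 of the 2 transcripts, which overlap over almost their whole span. The mean of ENST00000457692 was 0.4 FPKM in control cells and 0.0608 FPKM at 1 µM.

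The order of SERPINB2 within the groups was set beside CYP1A1, a classical target of the aryl hydrocarbon receptor and a check of exposure. CYP1A1 was 7.69, 3.76, 0.175, 0 and 0 FPKM in control replicates 1 to 5, and the 3 control libraries with any CYP1A1 were also the 3 highest for SERPINB2, in the same order. With scaling to the 75th percentile SERPINB2 was 0.498 in control replicate 5 and 0.481 in replicate 3, so that the third place then went to a library with CYP1A1 at 0. At 100 pM CYP1A1 was 70.9, 36.4, 3.21, 1.09 and 319 FPKM. The 5 libraries at 100 pM thus had the same order for CYP1A1 and SERPINB2, from replicate 5 down through replicates 1, 2, 3 and 4, with and without that scaling. At 10 nM CYP1A1 was 377, 349, 92.1, 228 and 292 FPKM, and replicate 3 was lowest and replicate 1 highest for both genes. After scaling, replicate 4 (4.95) was below replicate 3 (6.44) for SERPINB2, while replicate 3 stayed lowest for CYP1A1. At 1 µM CYP1A1 was 85.2, 251, 214, 389 and 234 FPKM, and replicate 1 was lowest for both genes, whereas the highest was replicate 4 for CYP1A1 and replicate 2 for SERPINB2. After scaling, SERPINB2 was lowest in replicate 5 (28.04) and next in replicate 1 (29.5). The median of CYP1A1 was 292 FPKM at 10 nM and 234 FPKM at 1 µM, whereas that of SERPINB2 was 16.8 and 39.6 FPKM. Among herbicide libraries the highest CYP1A1 was in glyphosate 0.1 g/L replicate 3, at 6.48 FPKM, which was also the herbicide library with the highest SERPINB2. These are orders of 5 libraries and were not tested.

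**Figure D2:**
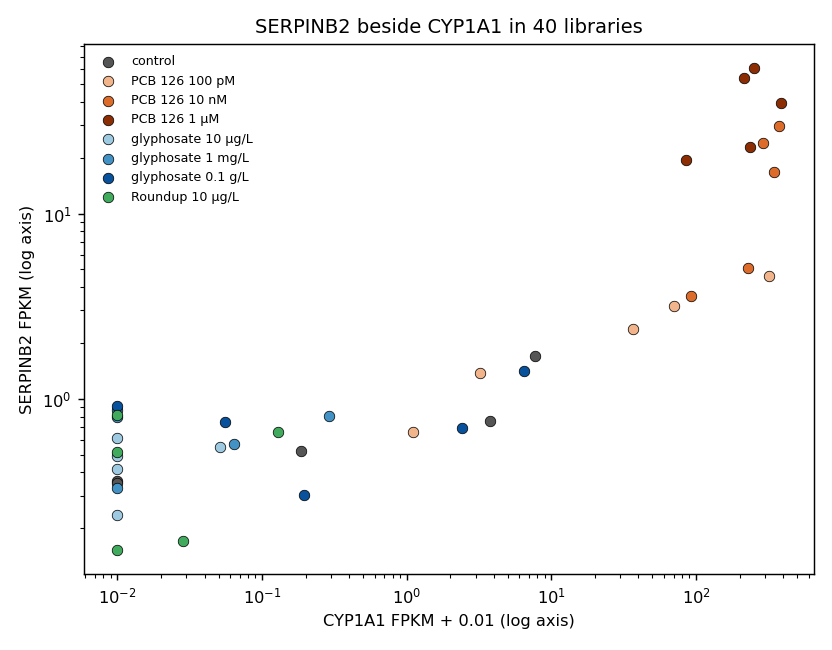
SERPINB2 FPKM against CYP1A1 FPKM + 0.01 in the 40 libraries, both on log axes; each point is 1 library, coloured by group. Libraries with CYP1A1 listed at 0 stand at the left edge with SERPINB2 under 1 FPKM, and the 1 µM libraries lie at 85.2 to 389 FPKM of CYP1A1 with SERPINB2 at 19.4 to 60.997 FPKM.

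Other targets of the receptor checked the labels. At 1 µM, CYP1A1 was 6.61 ± 0.91 (SE) higher on the log2 scale, CYP1A2 6.16 ± 0.76, CYP1B1 2.51 ± 0.53 and TIPARP 3.21 ± 0.42, with limma adjusted p of 7.44e-05, 2.29e-05, 0.00797 and 4.8e-05. AHRR, which encodes the repressor of the receptor, had a median of 1.67 FPKM in control and 1.63 FPKM at 1 µM. Over the 40 libraries, which share the PCB 126 groups and so a common step, the 6 genes whose log2(FPKM + 1) was most like that of SERPINB2 among 9732 genes were STC2 (Pearson r = 0.984), MB21D2 (0.979), TIPARP (0.978), SLC37A2 (0.969), AL158839.1 (0.966) and CYB561A3 (0.963). STC2 encodes stanniocalcin, a secreted glycoprotein, and its median was 0.99 FPKM in control, 1.76 at 100 pM, 8.88 at 10 nM and 18.96 at 1 µM. TIPARP encodes a member of the poly(ADP-ribose) polymerase family induced by dioxin, and its medians were 5.39, 6.58, 36.0 and 62.4 FPKM. CYP1A1 had r = 0.907 with SERPINB2.

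The second inhibitor among the members, SERPINE2, which encodes protease nexin and inhibits thrombin, urokinase and plasmin, was present at moderate levels in all groups and did not pass the test at any concentration. The control libraries held 24.4, 20.4, 20.2, 14.9 and 9.99 FPKM. The 100 pM libraries held 15.4, 19.6, 18.6, 17.8 and 12.9 FPKM, and the 10 nM libraries held 17.1, 17.5, 8.41, 16.3 and 6.47 FPKM. The 1 µM libraries held 6.8, 14.8, 14.2, 11.8 and 7.91 FPKM. The ranges of control and every PCB 126 group overlapped, and 2 libraries at 10 nM and 2 at 1 µM lay below every control library. The difference from control was -0.05, -0.46 and -0.65 (SE 0.30) on the log2 scale along the concentrations, with limma adjusted p of 1, 0.865 and 0.331, while the median of all 9755 genes tested moved by -0.26 at 1 µM. The exact permutation p at 1 µM was 0.0714. The 2 libraries at 10 nM and the 2 at 1 µM below the control range were those over the 30% limit, and so was the lowest control library, replicate 5. Without all libraries over the limit the difference at 1 µM was -0.51 with an adjusted p of 0.0994. The exact permutation p at 1 µM was 0.0238 without control replicate 5 alone and 0.0317 with scaling to the 75th percentile. With all libraries and no scaling, 9.85% of the genes that passed the variance filter had an exact permutation p under 0.05 at 1 µM. With quantile normalization the log2 difference was -0.44 with a limma adjusted p of 0.035, where 1125 of 9755 genes were called.

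Of the 4 members other than SERPINB2, 0 were called in the PCB 126 table by limma at any concentration among the genes that passed the variance filter, which left SERPINE2 as the only one of the 4 tested. The share of all tested genes called was 0% at 100 pM, 0.205% at 10 nM and 1.87% at 1 µM. SERPINE2 at 1 µM had an unadjusted limma p of 0.0377, where 1322 of 9755 genes had an unadjusted p under 0.05. In the herbicide table SERPINE2 was the only member tested and again 0 were called, as were 0% of all genes in each herbicide contrast, where 84 to 165 of 9533 genes had an unadjusted p under 0.05. SERPINE2 medians were 16.2, 18.3 and 18.1 FPKM at the 3 glyphosate doses in rising order and 16.1 FPKM with Roundup, against 20.2 FPKM in control. Its exact permutation p-values against control were 0.619, 0.706, 0.881 and 0.373. From the highest to the lowest median the order was control, glyphosate 1 mg/L, glyphosate 0.1 g/L, PCB 126 100 pM, PCB 126 10 nM, glyphosate 10 µg/L, Roundup and PCB 126 1 µM, with every pair of neighbours overlapping and exact permutation p of 0.23 or more. The SERPINE2 transcripts with most of the signal were ENST00000409304, at a mean of 12.3 FPKM in control and 6.56 at 1 µM, and ENST00000258405, at 4.37 and 3.4 FPKM. Neither was called at 1 µM (limma adjusted p = 0.584 and 0.968). The genes most like SERPINE2 over the 40 libraries were GMPS (r = 0.965), AMD1 (0.962) and CSTF2T (0.961).

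PLAUR, the receptor that holds urokinase at the cell surface, was low in all groups and was the member besides SERPINB2 whose 1 µM libraries stood apart from control. The control libraries held 1.78, 1.91, 0.878, 1.98 and 1.29 FPKM. The 100 pM libraries held 2.56, 2.25, 2.32, 2.31 and 1.75 FPKM, and the 10 nM libraries held 3.45, 2.64, 1.87, 1.98 and 2.34 FPKM. The 1 µM libraries held 3.25, 3.9, 3.28, 3.26 and 2.24 FPKM, all above every control library. The mean was 1.57 ± 0.47 FPKM (SD, n = 5) in control and 3.19 ± 0.595 at 1 µM, a ratio of 2.03. At 1 µM the 2-sided exact permutation p was 0.00794, the smallest that 5 against 5 libraries can give, and 0.428% of the 43478 genes above 0 in any library had all 1 µM libraries above all control libraries. The p at 100 pM was 0.0317, with 4 of 5 libraries above every control library, and at 10 nM 0.0397, with 3 of 5. Both depended on single libraries. At 100 pM the p was 0.0714 without replicate 1, 2, 3 or 4 of that group. At 10 nM it was 0.0635 to 0.0952 without replicate 1, 2 or 5 of that group or without control replicate 1, 3 or 5, and 0.0571 without the libraries over the 30% limit. Over every gene above 0 the same test gave p under 0.05 for 1.88%, 2.93% and 6.1% of genes along the concentrations. In all, 32 such tests of members against control were run. With scaling to the 75th percentile, PLAUR gave an exact permutation p of 0.00794 at 100 pM and 0.0159 at 10 nM. The share of all genes that passed the exact test with that scaling is not given. In limma, 298 and 676 of 8900 genes had an unadjusted p under 0.05 with it, against 116 and 473 of 9755 without it.

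PLAUR did not reach a variance of FPKM above 1, so it was outside the main limma fit. In the fit over every gene above 0, its difference from control was 0.71 ± 0.14 (SE) on the log2 scale at 1 µM, with an adjusted p of 0.0343, where 0.398% of genes were called. The adjusted p was 1 at 100 pM and 0.856 at 10 nM in the same fit, where 0% and 0.0322% of genes were called. Among genes with a mean FPKM above 1, the adjusted p at 1 µM was 0.071, so the call of PLAUR depends on which genes enter the adjustment. With scaling to the 75th percentile over every gene above 0, the difference was 0.84 with an adjusted p of 0.00637, where 696 of 43478 genes were called. Without the libraries over the 30% limit it was 0.79 with an adjusted p of 0.0447, where 518 of 42973 genes were called.

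The 3 glyphosate groups had higher PLAUR medians than the control libraries, which they share with the PCB 126 groups, and Roundup did not. Glyphosate libraries held 2.68, 2.38, 1.82, 2.54 and 1.15 FPKM at 10 µg/L, 2.55, 2.03, 2.1, 2.42 and 1.94 at 1 mg/L, and 2.34, 1.09, 2.47, 3.25 and 1.72 at 0.1 g/L. Roundup libraries held 2.94, 2.13, 1.73, 1.52 and 0.387 FPKM. At 1 mg/L, 4 of 5 libraries were above every control library, with an exact permutation p of 0.0159 and a limma adjusted p of 1 over every gene above 0. The exact p was 0.0714 without replicate 1 of that group and 0.0635 without replicate 4. The exact test gave p under 0.05 for 2.1% of genes in that group. The other herbicide groups gave exact permutation p of 0.198, 0.206 and 0.905 for glyphosate at 10 µg/L, glyphosate at 0.1 g/L and Roundup, where it passed in 1.53%, 1.68% and 1.44% of genes. With scaling to the 75th percentile, glyphosate at 10 µg/L and at 0.1 g/L each gave an exact permutation p of 0.0159. The share of all genes that passed the exact test with that scaling is not given. In limma, 215 and 690 of 7751 genes had an unadjusted p under 0.05 with it, against 95 and 84 of 9533 without it. Roundup set against glyphosate at the same 10 µg/L, a comparison without the controls, gave exact permutation p of 0.929 for SERPINB2, 0.722 for SERPINE2, 0.476 for PLAUR, 0.976 for PLAU and 0.135 for PLAT. In the order of medians PCB 126 at 1 µM was highest at 3.26 FPKM, and it overlapped its neighbour, glyphosate at 10 µg/L (2.38 FPKM, exact permutation p = 0.0317). Below these stood PCB 126 10 nM, glyphosate 0.1 g/L, PCB 126 100 pM, glyphosate 1 mg/L (2.1 FPKM), control (1.78 FPKM) and Roundup (1.73 FPKM). The only other neighbours in that order with an exact permutation p under 0.05 were glyphosate 1 mg/L and control.

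The PLAUR signal was divided over several transcripts. ENST00000339082 (7 exons, 1254 bases) had a mean of 0.576 ± 0.347 FPKM (SD, n = 5) in control, 1.13 at 100 pM, 1.09 at 10 nM and 1.62 ± 0.571 at 1 µM. ENST00000340093 (7 exons, 1548 bases) had means of 0.699, 0.526, 0.691 and 0.632 FPKM in the same groups. The genes most like PLAUR over the 40 libraries were SRGN, which encodes the secretory granule proteoglycan serglycin (r = 0.829), the non-coding gene HCP5 (0.827) and GAS6, which encodes a ligand of the TAM receptor kinases (0.825). Across the 40 libraries PLAUR and SERPINB2 had r = 0.58 as a description over libraries that share their scale.

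**Figure D3:**
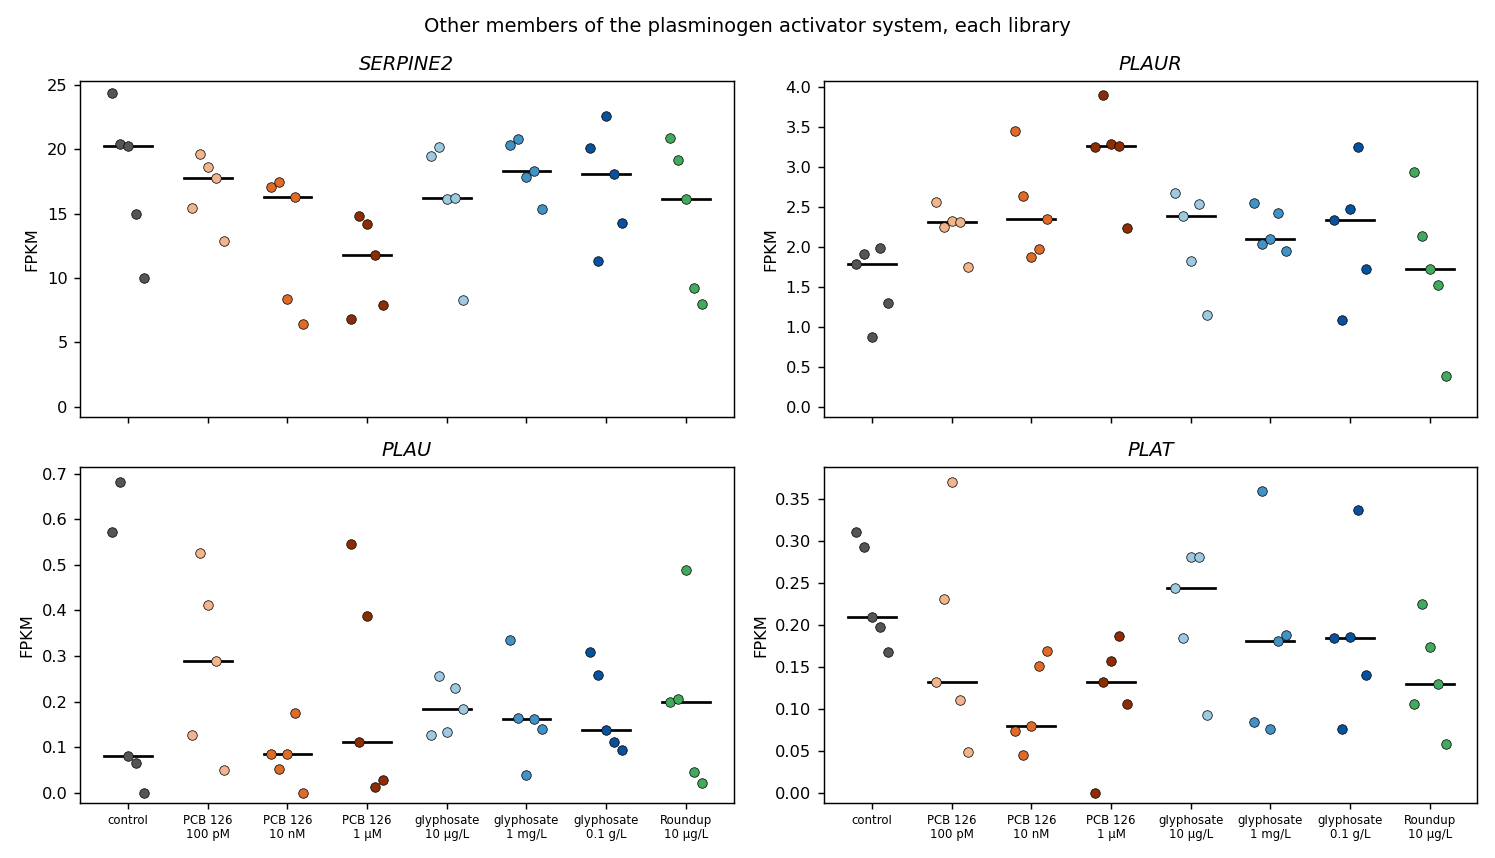
FPKM of SERPINE2, PLAUR, PLAU and PLAT in each library by group, on linear axes that differ between panels; each point is 1 library and the bar is the group median of 5. PLAUR at 1 µM PCB 126 sits between 2.24 and 3.9 FPKM, above the control libraries at 0.878 to 1.98 FPKM, while PLAU and PLAT stay under 1 FPKM everywhere.

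The activators themselves were scarce. PLAT lies on the minus strand of chromosome 8. PLAU was 0.573, 0.68, 0.0813, 0.0648 and 0 FPKM in control and 0.545, 0.111, 0.388, 0.0119 and 0.0283 FPKM at 1 µM. Its values lay between 0 and 0.68 FPKM in the 40 libraries, it was above 0 in 38, and the exact permutation p against control was between 0.341 and 0.905 over the 7 treated groups. In control the mean was 0.0827 FPKM for ENST00000446342 (10 exons, 2658 bases) and 0.197 FPKM for ENST00000481390, a short transcript of 468 bases that was above 0 in 2 of the 5 libraries. PLAT was 0.311, 0.293, 0.209, 0.197 and 0.168 FPKM in control. At 100 pM it was 0.131, 0.231, 0.37, 0.11 and 0.0487 FPKM, with 1 library above every control library, 3 below and an exact permutation p of 0.349. It was 0.0737, 0.0455, 0.0798, 0.151 and 0.169 FPKM at 10 nM, and 0, 0.132, 0.158, 0.186 and 0.106 FPKM at 1 µM. At 10 nM and at 1 µM, 4 of 5 libraries lay below every control library, with a mean of 0.236 ± 0.0627 FPKM (SD, n = 5) in control, 0.104 ± 0.0531 at 10 nM and 0.116 ± 0.0715 at 1 µM. The exact permutation p was 0.0159 for both, a test passed at 0.05 by 2.93% and 6.1% of genes above 0, and the adjusted p over every gene above 0 was 0.951 and 0.509. Without the libraries over the 30% limit the exact permutation p at 1 µM was 0.0857. The number of fragments behind values at this level is unknown. The herbicide groups gave exact permutation p between 0.0556 and 0.698 for PLAT. The lowest, for Roundup, was 0.0397 with scaling to the 75th percentile, 0.0238 without Roundup replicate 2 and 0.0476 without control replicate 5. In the order of medians PLAU ran from PCB 126 100 pM (0.289 FPKM) down to control (0.0813 FPKM) and PLAT from glyphosate 10 µg/L (0.244 FPKM) down to PCB 126 10 nM (0.0798 FPKM). All neighbours in both orders overlapped. The genes most like PLAU were TAB1 (r = 0.62), SCARNA7 (0.605) and NDUFB1 (0.603), and those most like PLAT were PPFIA1 (0.679), ACTR1B (0.675) and RAB11FIP4 (0.674), all weak likenesses between low values.

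Other genes of the system were read from a list of 24, of which 21 passed the variance filter. At 1 µM, 20 of the 21 had a negative log2 difference from control, 2 were called lower and 0 higher, beside 1.22% of all genes called lower and 0.646% called higher. The median of the list was -0.77 against -0.26 over all genes tested. The 2 called genes were HRG and FGB. HRG encodes histidine-rich glycoprotein, a plasma protein that binds plasminogen and heparin, and it was at 65.5 to 112 FPKM in control (median 81.8) and 8.67 to 42.4 at 1 µM (median 32.2), a difference of -1.64 ± 0.37 (SE) with a limma adjusted p of 0.0161. FGB, the beta chain of fibrinogen, was at 1148 to 2336 FPKM in control and 234 to 934 at 1 µM, a difference of -1.37 ± 0.33 with an adjusted p of 0.0259. The groups did not overlap for either gene, as for 1.64% of the genes tested in this direction. Both calls depended on single libraries: 0 genes of the list were called lower without control replicate 2 or without control replicate 4, and 1 without control replicate 1 or without 1 µM replicate 1.

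PLG, which encodes plasminogen, had a median of 3.61 FPKM in control and 1.64 at 1 µM, with a difference of -0.79 ± 0.26 (SE) and a limma adjusted p of 0.139. The remaining genes with the smallest p were SERPINI1, encoding neuroserpin (-0.98), SERPINA5, the inhibitor of activated protein C (-1.002), CPB2, encoding a carboxypeptidase that protects fibrin (-1.97), FGG, the gamma chain of fibrinogen (-1.07), and VTN, encoding vitronectin (-0.96), with limma adjusted p between 0.0835 and 0.133. KLKB1, which encodes prekallikrein, was the 1 with a positive difference. With scaling to the 75th percentile, 6 of the 21 were called lower and 0 higher, where 3.7% and 2.82% of all genes were called in these directions. A linear trend in limma over the 4 dose steps (control to 1 µM) called 5 of the 21 lower and 0 higher, beside 2.86% and 0.923% of all genes. They were FGB (-0.48 per step, adjusted p = 0.00966), HRG (-0.56, 0.0132), SERPINI1 (-0.32, 0.0311), SERPINA5 (-0.35, 0.0478) and VTN (-0.33, 0.0496). Without control replicate 5 the trend called 13 of the list lower, and leaving out any other 1 library gave between 2 and 9. The shares of all genes called in these runs are not given, so these counts have no background beside them. SERPINE2 had a slope of -0.24 ± 0.09 per step with an adjusted p of 0.145. At 100 pM and 10 nM, and in each herbicide comparison, 0 genes of the list were called by limma, and the count of the list with an unadjusted p under 0.05 was also 0 in each, or 2 at 10 nM with scaling to the 75th percentile. Over all genes 0%, 0.205% and 0% were called at 100 pM, at 10 nM and in the herbicide comparisons.

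**Figure D4:**
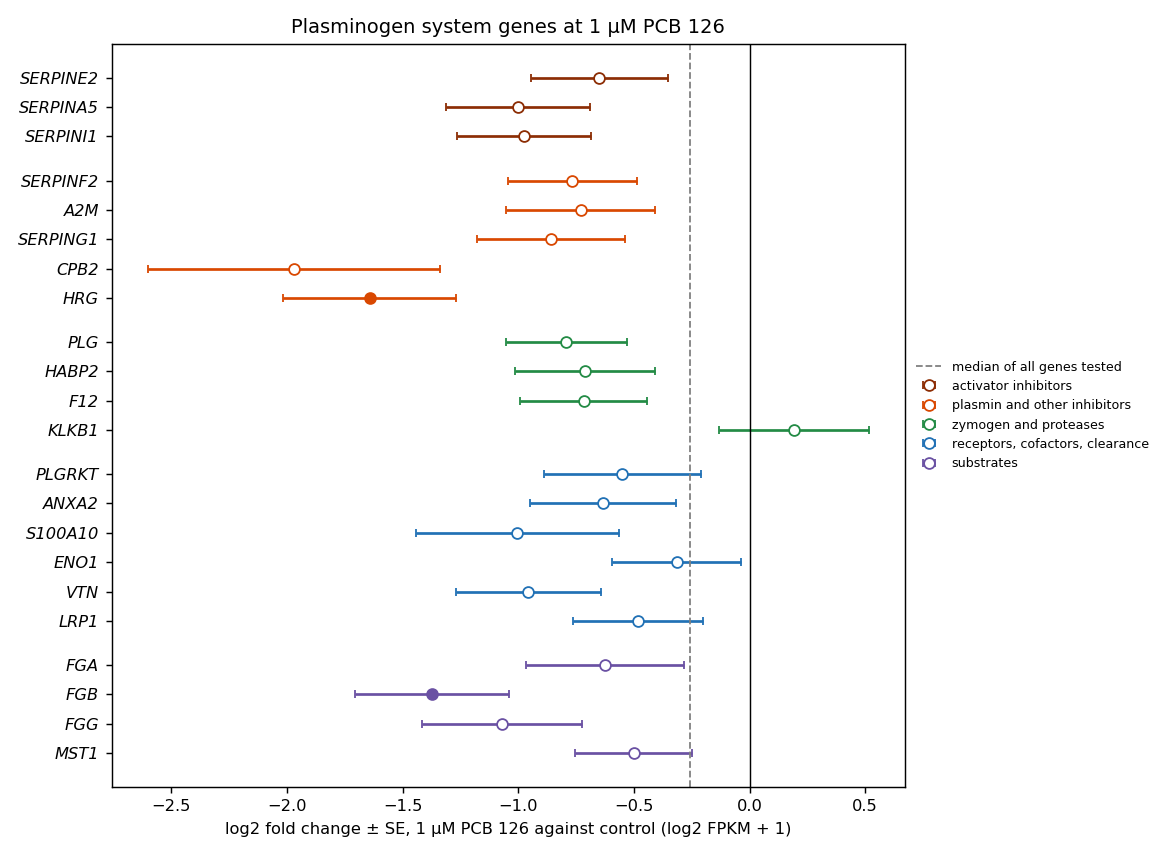
Difference from control on the log2(FPKM + 1) scale at 1 µM PCB 126, with SE, for the plasminogen system genes that passed the variance filter, grouped by role. Filled points were called (HRG and FGB), open points were not, and the dashed line marks the median of all genes tested at -0.26.

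The clade B relatives of SERPINB2 were mostly too low to test. Of 12 listed, 3 passed the variance filter (SERPINB1, SERPINB6 and SERPINB8) and 0 were called at any concentration by limma, with 0 at an unadjusted p under 0.05 at 1 µM. With 1.87% of all genes called at 1 µM, 0 of 3 is no result about these relatives. SERPINB10, whose annotated span begins inside that of SERPINB2 at chr18:63897174, was at most 0.0822 FPKM in the 40 libraries. SERPINB7, the next of the listed genes before SERPINB2 on the chromosome, lay between 0.0697 and 1.07 FPKM, and SERPINB8, after SERPINB10, had a median of 3.39 FPKM in control and 4.46 at 1 µM (log2 difference 0.25 ± 0.26, limma adjusted p = 0.658). SERPINB3, SERPINB4, SERPINB5, SERPINB11, SERPINB12 and SERPINB13, in the same cluster, stayed at or under 0.551 FPKM in every library.

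Marker genes of several cell types moved with the 1 µM group in part. By limma, 1 of 5 hepatocyte, 1 of 4 mesenchymal and 0 of 3 biliary markers tested were called lower, beside 1.22% of all genes. The summed FPKM of 5 hepatocyte markers had a median of 18228 in control (12857 to 18908) and 8768 at 1 µM (5292 to 12943). ALB and SERPINA1 make up most of this sum, and CYP3A4 of the same list had a higher median at 1 µM (5.2 FPKM) than in control (2.17 FPKM), with overlapping ranges. The 5 mesenchymal markers had a median sum of 24.5 FPKM in control (12.2 to 28.1) and 9.13 at 1 µM (4.46 to 10.7), where COL3A1 had a median of 12.1 and 0.41 FPKM and COL1A2 was at most 0.042 FPKM in any library. COL1A1 of the same list went the other way, with medians of 1.81 FPKM in control and 4.73 FPKM at 1 µM and overlapping ranges. COL3A1 was also the gene least like SERPINB2 over the 40 libraries (r = -0.929). The biliary markers had median sums of 372 and 213 FPKM. The part of these shifts in the values of the members was not tested. The 5 macrophage and leukocyte markers summed to between 0.118 and 1.29 FPKM in the 40 libraries, with C1QA at 0 in all, and the endothelial markers summed to between 0.627 and 5.23 FPKM. The macrophage and leukocyte sum had a median of 0.308 FPKM in control (0.194 to 0.415) and 0.492 at 1 µM (0.132 to 0.749), with overlapping ranges.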

How the data were processed

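The 40 libraries of rRNA-depleted HepaRG RNA were grouped by the condition in their labels. Alignment to GRCh38 was done by the authors with HISAT2 and quantification with StringTie, and their 2 tables give FPKM for 234960 transcripts in each library. A few of the authors' columns hold values below 0, which FPKM cannot be, so the deposited unit of these columns was recorded as a score. The 4 and 6 such values were set to 0 and the columns used as FPKM. FPKM were then summed per gene name, and not scaled between libraries. Read counts were not used here, so no interval for counting error is given.

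Genes with a variance of FPKM above 1 (9755 in the PCB 126 table and 9533 in the herbicide table) were fitted on log2(FPKM + 1) with limma 3.58.1 in R 4.3.3 (lmFit and eBayes), all groups of a table together, with Benjamini-Hochberg adjustment and a threshold of 0.05. Single values were compared by 2-sided exact permutation tests of the difference of means over 252 splits. The fit was tested on simulated data. The members, the gene lists and the motifs were chosen with earlier results of these data known. Genes named outside the members were those past the threshold, up to 6 by smallest p, and those of highest likeness. 1 gene of the pathway list is not reported here. KLKB1, the chromosome 18 neighbours and single markers were named after their values were seen. The 30% limit on multiply aligned pairs used an alignment summary that names 38 of the libraries. Python 3.11.15, pandas and matplotlib did the rest. Replicates were numbered by runs of library numbers in the labels, which name no shared culture or day. 2 further settings (every gene above 0 with another scaling, or without the libraries over the limit) were added after the data were seen.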

Additional observations from a re-analysis of the deposited data

Results flagged for a closer look

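Of 40 sets of 5 libraries (5 members in 8 groups), 1 held a library that stood apart from its group by Dixon's gap test at the 5% level, which chance alone passes in about 5% of groups. It was the lowest SERPINE2 library of glyphosate at 10 µg/L (replicate 5), at 8.3 FPKM beside 16.1 FPKM in the next lowest, a gap of 0.745 of the group's range on the log2(FPKM + 1) scale. This library is among the 9 over the 30% limit, and after scaling to the 75th percentile the lowest SERPINE2 value of that group was 13.7.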

How the results depend on the processing

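SERPINB2 kept a positive difference from control at all 3 PCB 126 concentrations under each alternative run. These runs use the same libraries whose response led to its choice, so they describe the processing and are no test of the response. With a pseudocount of 0.1 the differences were 1.54, 4.02 and 5.62 in place of 0.91, 2.96 and 4.45. Leaving out 1 library gave 0.70 to 1.14, 2.65 to 3.33 and 4.27 to 4.67. The small SERPINE2 differences changed sign in several settings, all without a call. At 100 pM (-0.05) it was 0.015 with scaling to the 75th percentile and 0.017 with a library-size term, and -0.23 to 0.074 with 1 library left out. For glyphosate at 1 mg/L (0.09) it was -0.054 with quantile normalization and -0.092 without the libraries over the limit, and -0.092 to 0.21 with 1 library left out. For glyphosate at 0.1 g/L (-0.03) it was 0.13 with 75th percentile scaling and 0.12 with a library-size term, and -0.22 to 0.098 with 1 library left out. Glyphosate at 10 µg/L ranged from -0.34 to 0.052, and Roundup against glyphosate at 10 µg/L from -0.36 to 0.023 (0.052 without the libraries over the limit).

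Of the members other than SERPINB2, 0 were called at 1 µM, 1 (SERPINE2) with quantile normalization, and 1 (PLAUR) over every gene above 0, also with 75th percentile scaling or without the libraries over the limit. At 1 µM the pathway genes called lower were 2, against 0 over every gene above 0 or with an ordinary linear model, 1 with 2 groups in the fit or without the libraries over the limit over every gene above 0, 4 without those libraries, 6 with 75th percentile scaling, 9 with quantile normalization and 0 to 2 with 1 library left out. In the trend 5 called lower became 2 over every gene above 0 or without the libraries over the limit, and 3 with a pseudocount of 0.1 or the most abundant transcript. It became 9 and 10 with the scalings, and 2 to 13 with 1 library left out. The shares of all genes called by the trend in these settings are not given. All genes called at 1 µM numbered 182, against 580 with 75th percentile scaling, 1125 with quantile normalization and 526 without the libraries over the limit. Over every gene above 0 they numbered 173, against 696 with 75th percentile scaling and 518 without the libraries over the limit. Those called lower numbered 119 of 9755 in the main fit, 72 with an ordinary linear model and 87 with 2 groups in the fit. They were 329 of 8900 with 75th percentile scaling, 615 of 9755 with quantile normalization and 320 of 8298 without the libraries over the limit. Over every gene above 0, 92 of 43478 were lower, and 213 of 42973 without those libraries. The shares with 1 library left out are not given. The cause of these changes was not tested.

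Replicate numbers were not treated as a pairing, since the labels name no shared culture or day. The p-values given for members thus leave out any variation that same-numbered libraries share. Same-numbered libraries had a median r of 0.0634 between their deviations from the group means in the PCB 126 table (7 of 30 pairs over 0.1). In the herbicide table it was 0.0688 (19 of 50 pairs), against -0.018 and -0.019 for other numbers. Of the libraries, 9 of 20 and 18 of 25 correlated best with their own number, a hint of shared variation. The share that chance would give was not computed. The library numbers fall in 5 runs that each hold every group, and what the libraries of a run share was not tested. Replicate 5 was below the median library of its table in every group, with a relative 75th percentile of 0.591 to 0.935. It was also the lowest SERPINE2 library in every group except PCB 126 at 1 µM and glyphosate at 0.1 g/L. With a replicate block the genes called at 1 µM rose to 357, of which 274 were lower, and the pathway genes called lower to 4. The values of single members with this block are not given.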
